A study of Rattus norvegicus with 3 samples.

Results

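Fos, Jun, Myc, Egr1 and Atf3 are 5 genes for transcription factors of the immediate early class. They were chosen by name as members of this class, and their rows were taken by Ensembl identifier (ENSRNOG00000008015, ENSRNOG00000026293, ENSRNOG00000004500, ENSRNOG00000019422 and ENSRNOG00000003745) from 26404 identifiers listed. The deposited tables give identifiers without gene names, so the names rest on that choice. RNA was sequenced from 3 libraries of adult rat liver, each a pool of 3 rats. The healthy group was untreated and not operated. Both other groups had partial hepatectomy, the surgical removal of liver lobes followed by regrowth of what remains, and liver was taken 32 hours after surgery. The saline group had received 1 ml of saline. The etanercept group had received 9 mg/kg of etanercept in 1 ml, started 16 to 18 hours ahead of the operation. This drug joins a TNF receptor to an antibody tail and captures TNF before it reaches receptors on cells. No group had a sham operation, so regrowth and other consequences of surgery cannot be told apart. Strain and sex of the rats are not given.

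Immediate early genes are transcribed within minutes of a growth factor, cytokine or stress signal, from factors already present in the cell, and their messenger RNAs are short-lived. Fos and Jun proteins pair to form AP-1, which switches on growth genes. Myc drives ribosome building and entry into the cell cycle, Egr1 is a zinc finger factor switched on through serum response factor and MAP kinases, and Atf3 is a stress-induced member of the ATF and CREB family that was also described as liver regenerating factor. In regrowing liver the class is known for a burst in the first hours after hepatectomy. Liver sampled at 32 hours is later than that burst.

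Serum response factor binds the CArG box, and the stretch before the Egr1 start site is shown because it carries this element. Of the 5 genes, Egr1 had an entry in the RefSeq promoter table (build GRCr8), and Fos, Jun, Myc and Atf3 had none. The 250 bases before the annotated start of Egr1 lie at chr18:26736828-26737077 on the plus strand, in the flank of the gene, and capitals mark the CArG boxes.
Egr1: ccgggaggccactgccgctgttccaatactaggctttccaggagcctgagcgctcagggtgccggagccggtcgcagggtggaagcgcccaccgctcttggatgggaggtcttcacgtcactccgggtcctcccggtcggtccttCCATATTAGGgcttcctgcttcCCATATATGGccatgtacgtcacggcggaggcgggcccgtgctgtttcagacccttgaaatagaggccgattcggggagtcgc
Both strands were searched for the CArG box, TGACGTCA (the CRE), TGANTCA (the AP-1 site), GCGNGGGCG (the Egr site) and CACGTG (the E-box). Egr1 held the CArG box at positions -105 and -83 from the start site and none of the other letters in this window. Of 33469 promoters of the same length, 1.5% held a CArG box, 1.59% TGACGTCA, 6.34% TGANTCA, 4.29% GCGNGGGCG and 5.59% CACGTG. A match is a description of the letters and not of a bound site.

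Gene reads numbered 5993834 in the healthy, 2645152 in the saline and 3639886 in the etanercept library. Levels are CPM, read counts brought to a common library size with the trimmed mean of M-values (TMM). The etanercept library stood apart: 77.4% of its uniquely aligned reads fell in no gene, a share that was 19.9% for healthy and 21.7% for saline liver. The part of this difference in the results below was not tested. Each group was a single library, so nothing could be tested and no p-value is given, and each interval is an exact 95% interval for counting error that leaves out variation between animals and preparations. PCR copies are counted as separate reads, which makes the intervals too narrow if there are many. A gene counted as tested when the higher of the libraries compared had at least 5 CPM (26.9 counts for healthy, 16.2 for saline and 16.6 for etanercept), and as called when its levels were at least 2-fold apart. Levels are not compared between genes, because the lengths of the gene models counted are not given. In these bulk samples fewer cells of a type and less RNA per cell cannot be told apart. The labelled tissue could not be checked against liver markers, since identifiers could not be matched to names.

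Fos, a partner in AP-1, was barely detected. It had 5 counts (0.931 CPM, interval 0.302 to 2.17) in the healthy library, 12 counts (3.71 CPM, 1.92 to 6.48) in the saline library and 4 counts (1.20 CPM, 0.328 to 3.08) in the etanercept library. The saline level was the highest, the saline interval overlapped both others, and no library reached 5 CPM, so Fos was not tested. A count of 0 would allow up to 0.559, 0.927 and 0.904 CPM in the healthy, saline and etanercept libraries, so Fos in healthy and etanercept liver lay close to the limit of detection.

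Jun, the other partner in AP-1, had the most reads of the 5 genes. It had 344 counts (64.0 CPM, interval 57.5 to 71.2) in the healthy library, 251 counts (77.6 CPM, 68.3 to 87.8) in the saline library and 127 counts (38.2 CPM, 31.9 to 45.5) in the etanercept library. The etanercept library was the lowest, and its interval lay below both others, which overlapped each other.

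Myc, the growth and cell cycle factor, had 51 counts (9.49 CPM, interval 7.07 to 12.5) in the healthy library, 63 counts (19.5 CPM, 15.0 to 24.9) in the saline library and 71 counts (21.4 CPM, 16.7 to 27.0) in the etanercept library. Both hepatectomy libraries lay above the healthy interval and overlapped each other.

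Egr1, the zinc finger factor whose promoter is shown above, had 59 counts (11.0 CPM, interval 8.36 to 14.2) in the healthy library, 51 counts (15.8 CPM, 11.7 to 20.7) in the saline library and 90 counts (27.1 CPM, 21.8 to 33.3) in the etanercept library. The etanercept interval lay above both others, and the healthy and saline intervals overlapped.

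Atf3, the stress-induced factor, had 23 counts (4.28 CPM, interval 2.71 to 6.43) in the healthy library, 35 counts (10.8 CPM, 7.53 to 15.0) in the saline library and 51 counts (15.4 CPM, 11.4 to 20.2) in the etanercept library. The healthy library was the lowest and its interval lay below both others, while those of the hepatectomy libraries overlapped. In the RefSeq annotation the Atf3 span overlaps Garin4, and reads shared by overlapping genes are not part of a gene's count.

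**Figure D1:**
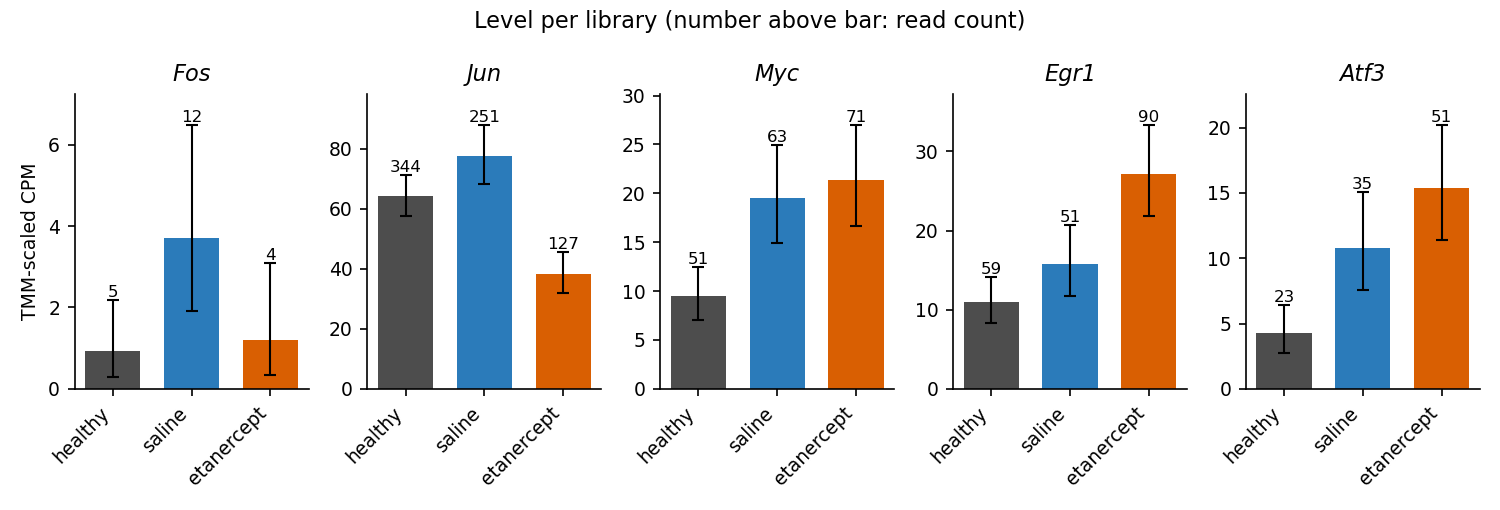
TMM-scaled CPM of each gene (y axis, from 0, its own scale in each panel) in the healthy, saline and etanercept libraries, with exact 95% Poisson intervals as bars and read counts above them. Jun was lowest in the etanercept library at 38.2 CPM, whereas Egr1 was highest there at 27.1 CPM (lowest there when all uniquely aligned reads set the scale).

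The saline library was set against the healthy library to describe liver after hepatectomy. Atf3 was 2.48-fold higher in the saline library (interval 1.45 to 4.48) and Myc 2.04-fold higher (1.40 to 3.03), and both were called. Egr1 was 1.43-fold higher (0.967 to 2.12) and Jun 1.21-fold higher (1.03 to 1.43), and neither was called. Fos, not tested, had a ratio of 3.64 (1.31 to 14.4), from 12 against 5 counts. The Egr1 interval included no change, and no interval lay wholly past 2-fold.

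Over all 9755 genes tested between saline and healthy, 19% were called, 9.21% higher and 9.75% lower. Of the 4 immediate early genes tested, 2 were called higher and 0 lower, which describes these genes and not their class. Their median log2 fold was 0.77, against -0.07 over all genes tested, whose middle 50% ran from -0.51 to 0.39. A larger fold than that of Atf3 was found in 6.26% of genes tested, than that of Myc in 8.85%, than that of Egr1 in 19.9% and than that of Jun in 30.1%. These folds depend on how the libraries are scaled. Scaling by total gene reads added about 0.45 to the log2 folds of saline over healthy, and less at low counts. It moved the median of genes tested to 0.40 and took the higher genes from 48.6% to 83.9% of those called. The folds were then 3.37 for Atf3, 2.77 for Myc, 1.95 for Egr1 and 1.65 for Jun, and 19.6% of genes tested were called higher. With TMM computed from the saline and healthy libraries alone, the folds were 2.53, 2.08, 1.46 and 1.23 in the same order.

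The etanercept library was set against the saline library to describe liver of rats given the drug before hepatectomy. An effect of the drug was not tested, because each group was a single library and these libraries also differed in reads outside genes. Jun was 2.02-fold lower in the etanercept library (interval 1.63 to 2.53) and was called, just past the threshold. Egr1 was 1.71-fold higher (1.21 to 2.47), Atf3 1.41-fold higher (0.906 to 2.25) and Myc 1.10-fold higher (0.771 to 1.57), and none of these was called. Fos, not tested, was 2.84-fold lower (0.933 to 13.1), from 4 against 12 counts. The intervals of Atf3, Myc and Fos included no change.

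Over all 9991 genes tested between etanercept and saline, 37.5% were called, 18.3% higher and 19.2% lower. Of the 4 immediate early genes tested, 1 was called lower and 0 higher. Their median log2 fold was 0.32, against 0.00449 over all genes tested, whose middle 50% ran from -0.75 to 0.73. A smaller fold than that of Jun was found in 18.7% of genes tested, and a larger one than that of Egr1 in 23.7%. Scaling by total gene reads lowered the log2 folds of etanercept over saline by about 0.42, and less at low counts. It took the higher genes from 48.8% to 25.6% of those called. Jun was then 2.71-fold lower, Egr1 1.28-fold and Atf3 1.06-fold higher, and Myc turned to 1.22-fold lower. With total gene reads less the 100 most abundant genes, Myc was 1.09-fold lower. With DESeq2 size factors Jun was 1.99-fold lower and no longer called. Scaling by all uniquely aligned reads, an alternative chosen after seeing the data that also counts reads in no gene, put all 5 genes lower in the etanercept library, from 2.87-fold for Egr1 to 12.2-fold for Fos, together with 90.2% of all genes tested.

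The etanercept library was also set against the healthy library. Atf3 was 3.52-fold higher in the etanercept library (interval 2.15 to 6.15), Egr1 2.45-fold higher (1.76 to 3.49) and Myc 2.24-fold higher (1.55 to 3.29), and all 3 were called. Only the Atf3 interval lay wholly past 2-fold. Jun was 1.67-fold lower (1.36 to 2.07) and was not called. Fos, with 4 against 5 counts, had a ratio of 1.26 (0.257 to 6.01), too few reads to show a difference of either sign. The 3 comparisons share libraries in pairs, so their folds are not independent.

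Over all 10069 genes tested between etanercept and healthy, 45.9% were called, 21.8% higher and 24.1% lower. Of the 4 immediate early genes tested, 3 were called higher and 0 lower, with a median log2 fold of 1.23 against -0.05 over all genes tested. A larger fold than that of Atf3 was found in 10.9% of genes tested, than that of Egr1 in 17.1% and than that of Myc in 19.0%. Scaling by total gene reads moved these log2 folds by 0.03 and changed no call among the 4 genes. Scaling by all uniquely aligned reads turned the direction: Myc was then 1.65-fold lower, Egr1 1.51-fold lower and Atf3 1.04-fold lower in the etanercept library. That scaling put 80.9% of all genes tested at least 2-fold lower.

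**Figure D2:**
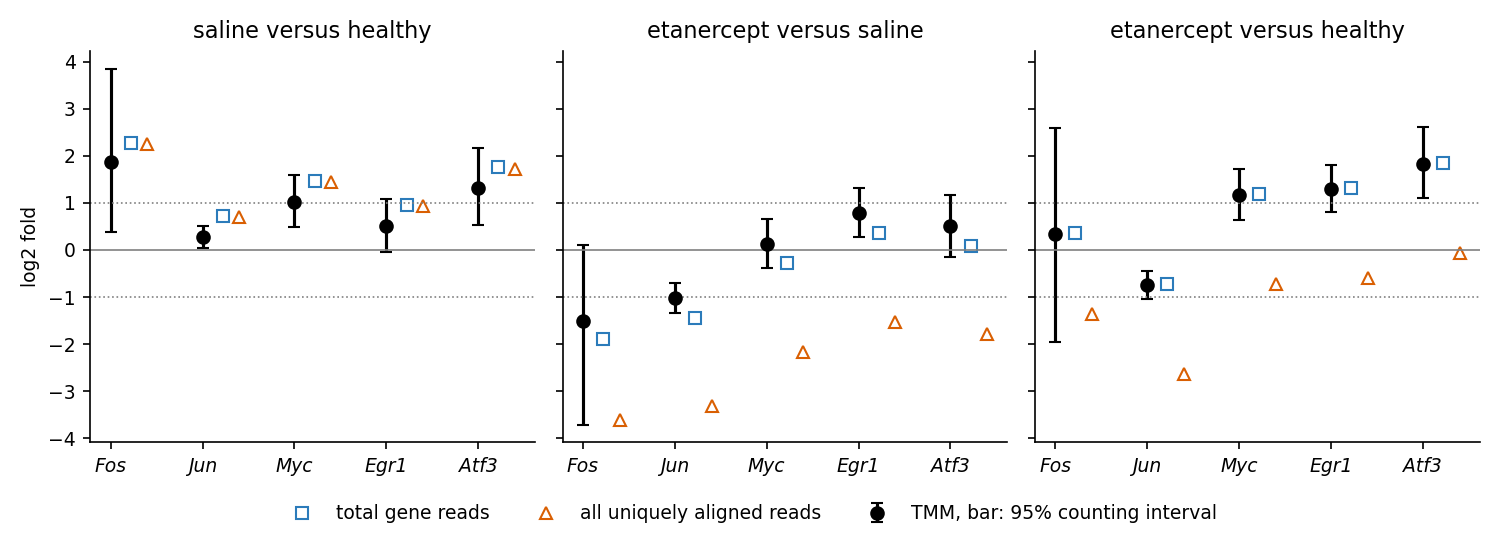
Log2 fold (y axis) of each gene in each comparison with TMM scaling (filled circles, bars for the 95% counting interval), total gene reads (squares) and all uniquely aligned reads (triangles); dotted lines mark 2-fold. Against healthy, the etanercept values of Myc, Egr1 and Atf3 lie above 0 with TMM and below 0 with all uniquely aligned reads, while Jun lies below 0 with each.

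The 5 genes were also compared with each other, which no scaling between libraries can alter. A comparison of the reads of the 5 genes within each library needs no factor between libraries. Of the 482, 412 and 343 reads of the 5 genes in the healthy, saline and etanercept libraries, Jun held 71.4% (exact Clopper-Pearson interval 67.1 to 75.4), 60.9% (56.0 to 65.7) and 37.0% (31.9 to 42.4). The Jun share was thus lowest in the etanercept library, and none of the 3 intervals overlapped. Egr1 held 12.2%, 12.4% and 26.2% of these reads, Myc 10.6%, 15.3% and 20.7%, and Atf3 4.77%, 8.50% and 14.9%. Fos held 1.04%, 2.91% and 1.17%. Since the parts add to the whole, a lower Jun share raises the others.

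**Figure D3:**
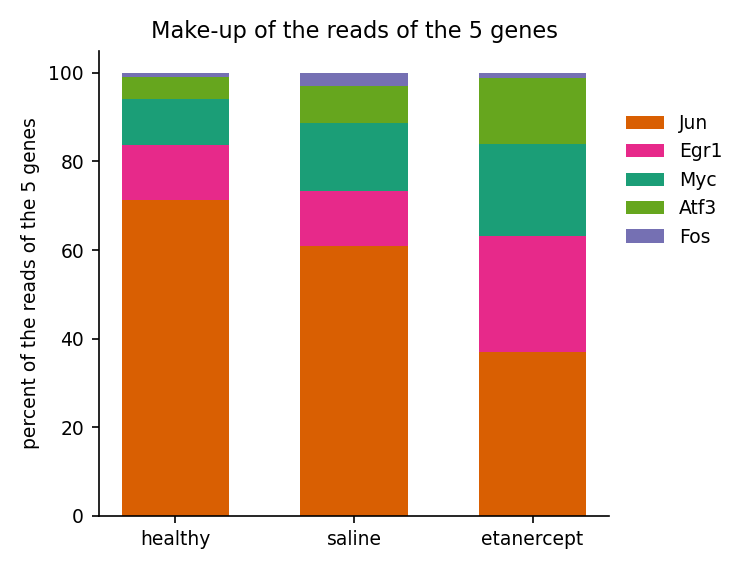
Percent of the reads of the 5 genes (y axis) taken by each gene in the healthy, saline and etanercept libraries. Jun took 71.4%, 60.9% and 37.0%, and Egr1 took 12.2%, 12.4% and 26.2%.

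Pairs of genes were then compared by the ratio of their folds, computed from raw counts, which also needs no scaling. Of 30 ratios (10 pairs in 3 comparisons, intervals not adjusted for their number), 11 had an interval that left out 1, and all but 2 of these involved Jun. Jun had the most reads of these genes, so intervals of pairs with Jun tended to be narrower and left out 1 more readily. From saline to etanercept, Egr1 gained on Jun by 3.49-fold (2.28 to 5.34), Atf3 by 2.88-fold (1.73 to 4.80) and Myc by 2.23-fold (1.46 to 3.39). From healthy to etanercept the gains on Jun were 6.01-fold for Atf3 (3.43 to 10.7), 4.13-fold for Egr1 (2.76 to 6.20) and 3.77-fold for Myc (2.44 to 5.83). From healthy to saline, Atf3 gained on Jun by 2.09-fold (1.16 to 3.79), Myc by 1.69-fold (1.11 to 2.59) and Fos by 3.29-fold (1.06 to 12.0). The remaining ratios of this kind were those of Egr1 and Atf3 to Fos from saline to etanercept, 5.29-fold (1.49 to 23.5) and 4.37-fold (1.18 to 19.9), where Fos had 12 and 4 counts. Among Myc, Egr1 and Atf3 every interval included 1 in each comparison, so their changes could not be told apart at this depth.

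The order of the libraries was then set beside that of all 10347 genes with at least 5 CPM in the highest library. Myc, Egr1 and Atf3 ranked from healthy through saline to etanercept, an order found in 21.1% of these genes. With total gene reads Myc was highest in the saline library instead, with 8.51, 23.8 and 19.5 CPM in the healthy, saline and etanercept libraries. Jun ranked from etanercept through healthy to saline, an order found in 16.1% of genes, and it kept this order with total gene reads. With all uniquely aligned reads all 5 genes had the order of Jun. With TMM the interval of the fold included no change for the step from saline to etanercept of Myc and Atf3. It also did so for that from healthy to saline of Egr1, so the order of these neighbours was not resolved. For the step of Jun from healthy to saline the TMM interval began at 1.03. With total gene reads the Egr1 step from saline to etanercept (1.28-fold) had an interval that included no change. The Egr1 step from healthy to saline (1.95-fold) then had an interval that left it out. Which steps of Egr1 were resolved thus depended on the scaling.

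Likeness of pattern was measured as the distance between genes in the pair of log2 folds of saline over healthy and etanercept over saline, across 3 libraries. Within 0.25 of Jun lay 192 of 10346 other genes (1.86%), within 0.25 of Egr1 175 (1.69%), of Myc 83 (0.802%) and of Atf3 32 (0.309%). These numbers fell as the log2 fold of saline over healthy rose. That log2 fold was 0.28 for Jun, 0.52 for Egr1, 1.03 for Myc and 1.31 for Atf3. The distances also leave out counting error, and the interval of the 2.48-fold difference of Atf3 ran from 1.45 to 4.48. Whether a pattern is common or rare was therefore not tested. The gene nearest to Jun was ENSRNOG00000021904, with 20.7, 25.0 and 12.3 CPM in the healthy, saline and etanercept libraries, at a distance of 0.00665. The gene nearest to Egr1 was ENSRNOG00000010523, with 5.21, 7.42 and 12.95 CPM, at a distance of 0.0229. The gene nearest to Atf3 was ENSRNOG00000005929, with 10.8, 27.5 and 39.8 CPM, at a distance of 0.0392. These genes are given by identifier because no name could be matched.

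**Figure D4:**
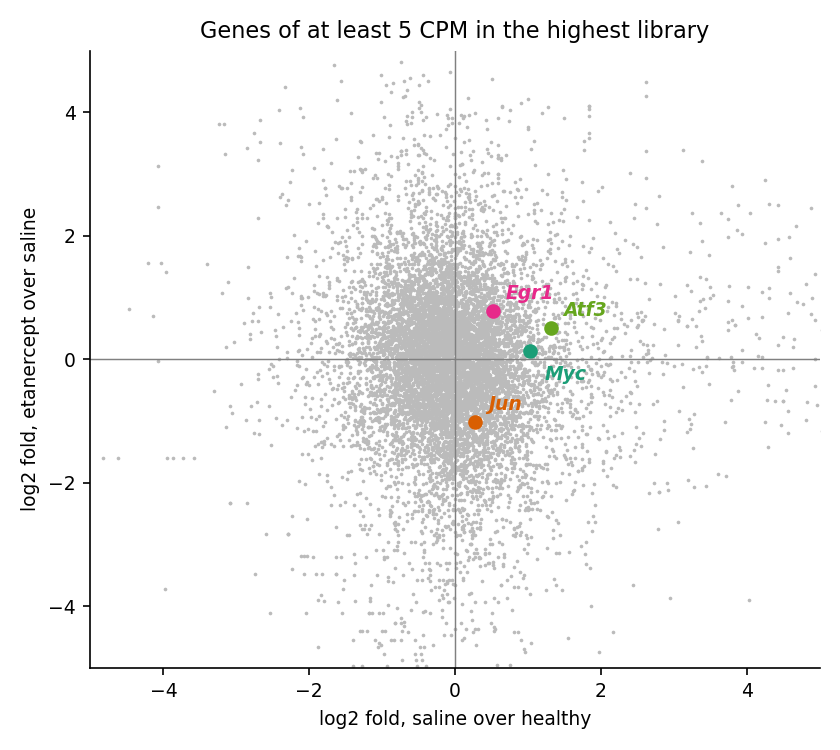
Log2 fold of etanercept over saline (y axis) against that of saline over healthy (x axis) for 10090 genes of at least 5 CPM in the highest library (grey; 257 more lie outside the axes), with the immediate early genes tested in colour. Jun lies below 0 on the y axis at -1.02, and Myc, Egr1 and Atf3 lie above 0 on both axes with TMM; with total gene reads Myc falls to -0.29 on the y axis, and with all uniquely aligned reads all 3 lie below 0 there.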

How the data were processed

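RNA of 3 pooled liver libraries was counted. The authors deposited 1 file per library, with raw, whole-number read counts for each Ensembl identifier. Per the labels' protocols, ribosomal RNA was removed from total RNA, and libraries were made with an Ion Torrent kit. The submitters' processing notes list TopHat2 2.0.13 and HTSeq 0.6.1. Genome build, annotation and strand setting are not stated there, so reads antisense to a gene cannot be told apart. The 5 summary rows that name no gene were left out of the TMM library sizes. Reads in no gene and in several genes, 2 of these rows, entered shares of uniquely aligned reads and 1 alternative scaling, by all uniquely aligned reads.

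Counts were scaled by TMM (edgeR 4.0.16, R 4.3.3), with factors of 0.896, 1.22 and 0.912 for the healthy, saline and etanercept libraries. Folds divide scaled counts after adding a pseudocount of 0.5. Their 95% intervals come from exact Clopper-Pearson bounds on the raw counts, without the pseudocount. Levels have exact Poisson intervals and ratios of folds exact conditional intervals (scipy 1.17.1, Python 3.11.15). Ratios of folds use raw counts without the pseudocount, so they can differ from the quotient of the folds given. With 0 residual degrees of freedom no model was fitted. The fold calculation was run on simulated Poisson counts, with the library sizes taken as known. Such counts hold no variation between animals and no error of scaling, so that run cannot measure either. The members and lists were chosen with earlier results of these data known. The text names the 5 genes and, for up to 2 higher and 2 lower, the gene of nearest pattern. The reference gene table matched 0 of 26404 identifiers, so 14 gene lists (related factors, targets and cell type markers) were not scored. Alternatives covered scaling, including DESeq2 1.42.0 size factors, the pseudocount, the CPM minimum and the fold threshold.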

Additional observations from a re-analysis of the deposited data

Results flagged for a closer look

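Uniquely aligned reads that were not assigned to 1 gene enter the comparisons above only through the scaling by all uniquely aligned reads. They were most frequent in the etanercept library, whereas the saline library was only slightly above the healthy one. The part in no gene was 19.9% in healthy, 21.7% in saline and 77.4% in etanercept liver. The part in several genes was 0.729%, 0.871% and 1.69% in the same order. Each group was 1 library, so the difference was not tested. How many of these reads came from the 5 immediate early genes was not analysed here. Reads aligned to several places form a further class, recorded as 23930072 in the healthy, 14151091 in the saline and 36628956 in the etanercept library. That class enters no count or scaling used here.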

How the results depend on the processing

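No paired analysis was possible because each group was 1 library, and for the same reason no replicate could be left out. Of 105 values of log2 fold for the 5 genes under other scalings or a pseudocount of 2, 93 stayed inside the counting interval of the reported value and the others left it. In both etanercept comparisons, TMM from the libraries compared alone repeated the reported log2 folds, so those values add no check. The sign changed in 9 of the 105 values, 7 of them with all uniquely aligned reads. With that scaling the log2 folds of etanercept over healthy were -0.72 for Myc, -0.59 for Egr1 and -0.058 for Atf3, all called higher with TMM, and -1.37 for Fos. Those of etanercept over saline were -2.16 for Myc, -1.52 for Egr1 and -1.79 for Atf3. The other changes were those of Myc in etanercept over saline, to -0.29 with total gene reads and to -0.13 without the 100 most abundant genes. The number of the 5 genes called was 2, 1 and 3 in saline over healthy, etanercept over saline and etanercept over healthy. It was 0, 0 and 0 with a threshold of 4-fold, and 0, 0 and 1 when the counting interval had to lie wholly past 2-fold. With at least 20 CPM it was 0 in saline over healthy, where Jun alone was tested at that minimum. Without a minimum level, or with all uniquely aligned reads, it was 3 in saline over healthy: Fos, Myc and Atf3. In etanercept over saline it was 0 with DESeq2 size factors, 2 without a minimum level, 2 with a threshold of 1.5-fold and 5 with all uniquely aligned reads, which gave 1, Jun, in etanercept over healthy. Over all genes, 1849, 3742 and 4623 were called. The numbers were 6523, 8078 and 9934 without a minimum level, 952, 2085 and 2709 with at least 20 CPM, 491, 1281 and 1894 at 4-fold, and 839, 1888 and 2829 with the interval wholly past 2-fold. At 1.5-fold 3867 were called in saline over healthy and 5964 in etanercept over saline. With all uniquely aligned reads 9686 were called in etanercept over saline and 8414 in etanercept over healthy. That scaling and TMM from the libraries compared alone were chosen after seeing the data. Depth limits Fos most, with 4 to 12 counts per library, and variation between animals was not measured.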
